A study of Oryctolagus cuniculus with 9 samples.

Results

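Among the 6 operated libraries of this study, 3 held many more reads of the red cell genes SLC4A1 and HEMGN than the other 3, and the 2 sets are set side by side here across all measured genes. The 3 high libraries were Fused replicate 2, Fused replicate 3 and ISC replicate 2. The 3 low libraries were Fused replicate 1, ISC replicate 1 and ISC replicate 3. They make up 6 of the 9 libraries of the series. The sets were chosen by measured values, namely the sum of SLC4A1, the anion exchanger of the red cell membrane, and HEMGN, a nuclear protein of blood cell precursors. That sum, in scaled read counts, was 3723 in ISC replicate 2, 2522 in Fused replicate 3 and 2497 in Fused replicate 2, the last inside the high set. It was 355 in Fused replicate 1, the first outside it, 163 in ISC replicate 1 and 64.2 in ISC replicate 3. The Control libraries lay between 11.2 and 33.9. Ranking by SLC4A1 alone or by HEMGN alone, the 2 terms of the sum, gave the same 3 high libraries. So did ranking by the share of haemoglobin reads or by the mean of 30 other red cell genes. All of these rankings rest on red cell genes, so none is independent of the choice.

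RNA was sequenced from the ligamentum flavum, the elastic ligament that joins the laminae of neighbouring vertebrae, of male New Zealand white rabbits aged 70 weeks. The labels describe surgery at 18 weeks of age, in which muscle was resected at L3-4 and the levels L2-3 and L4-5 were fused with instrumentation, and they assign a sham operation to the 3 Control libraries. The 3 Fused libraries came from a fused level and the 3 ISC libraries from the level of intervertebral stress concentration. Whether any of the libraries come from the same animal is not stated in the labels, and the p-values therefore rest on the spread between samples, which may be technical. Each high and each low set mixes both operated levels. Because the sets were made from the outcome itself, their differences are given as values and counts with no test, and the only test is that of the labels' own groups, Fused against ISC. A scaled read count is the number of reads in a gene after the authors' scaling for library size.

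Red cells and neutrophils are made in the marrow from dividing precursors, and the precursors switch on regulators such as GATA1 and KLF1, haem synthesis enzymes and granule proteins before the cells leave for the blood. Mature red cells carry leftover globin and membrane transcripts, and circulating neutrophils carry transcripts such as S100A8 and S100A9. The ligamentum flavum itself is built mainly of elastic fibres and collagen made by fibroblasts.

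Each library held 1233155 to 1869209 reads in genes. A total of 3 reads corresponded to a scaled read count between 3.01 and 3.58 in the operated libraries, below which counting error dominates. The filter on low values, which asked for 1 or more in no fewer than 3 operated libraries, kept 15404 gene rows. HBB2, a beta globin gene, took 5.64%, 6.41% and 5.00% of the scaled reads in Fused replicate 2, Fused replicate 3 and ISC replicate 2. It took 1.55%, 0.480% and 0.421% in Fused replicate 1, ISC replicate 1 and ISC replicate 3. Across genes on the log2(value + 1) scale, the first principal component of the 6 libraries held 40.5% of the variance. Its scores were 74.0, 53.3 and 33.4 in Fused replicate 2, Fused replicate 3 and ISC replicate 2 against -20.8, -64.6 and -75.3 in Fused replicate 1, ISC replicate 1 and ISC replicate 3. The second component, with 21.8%, set ISC replicate 2 (score -77.6) against Fused replicate 1 (53.7).

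Many more rows stood above than below in the high libraries. All 3 high libraries were above all 3 low ones in 2257 rows, or 14.7% of the 15404, and below them in 1163 rows, or 7.55%. Rows without overlap in either direction made up 22.2%. A 2-fold gap was counted where the lowest value + 1 of one set was at least 2 times the highest value + 1 of the other. By this count 723 rows (4.69%) stood above and 48 (0.312%) below, together 5.01%. A 4-fold gap was reached by 219 rows (1.42%) above and by 0 (0.0%) below. SLC4A1 and HEMGN are among the 723 and are not described further. The same libraries that were sorted are compared here, so these shares describe the sort and support nothing. Of the 723 rows, 92 were at 0 in every low library and could pass the filter only through the high ones. Most of the 48 rows below were at 0 in every high library and could pass only through the low ones. Tissue RNA cannot tell more cells of a type from more RNA per cell. The highest value of the 723 rows was in Fused replicate 2 for 349, in ISC replicate 2 for 303 and in Fused replicate 3 for 71. Among the low libraries, Fused replicate 1 was the highest for 525 of the 723, and for 5588 of the 15404 rows. In 705 of the 723 rows each high library was also above all 3 Control libraries, an order found in 2869 of the 15404 rows.

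**Figure D1:**
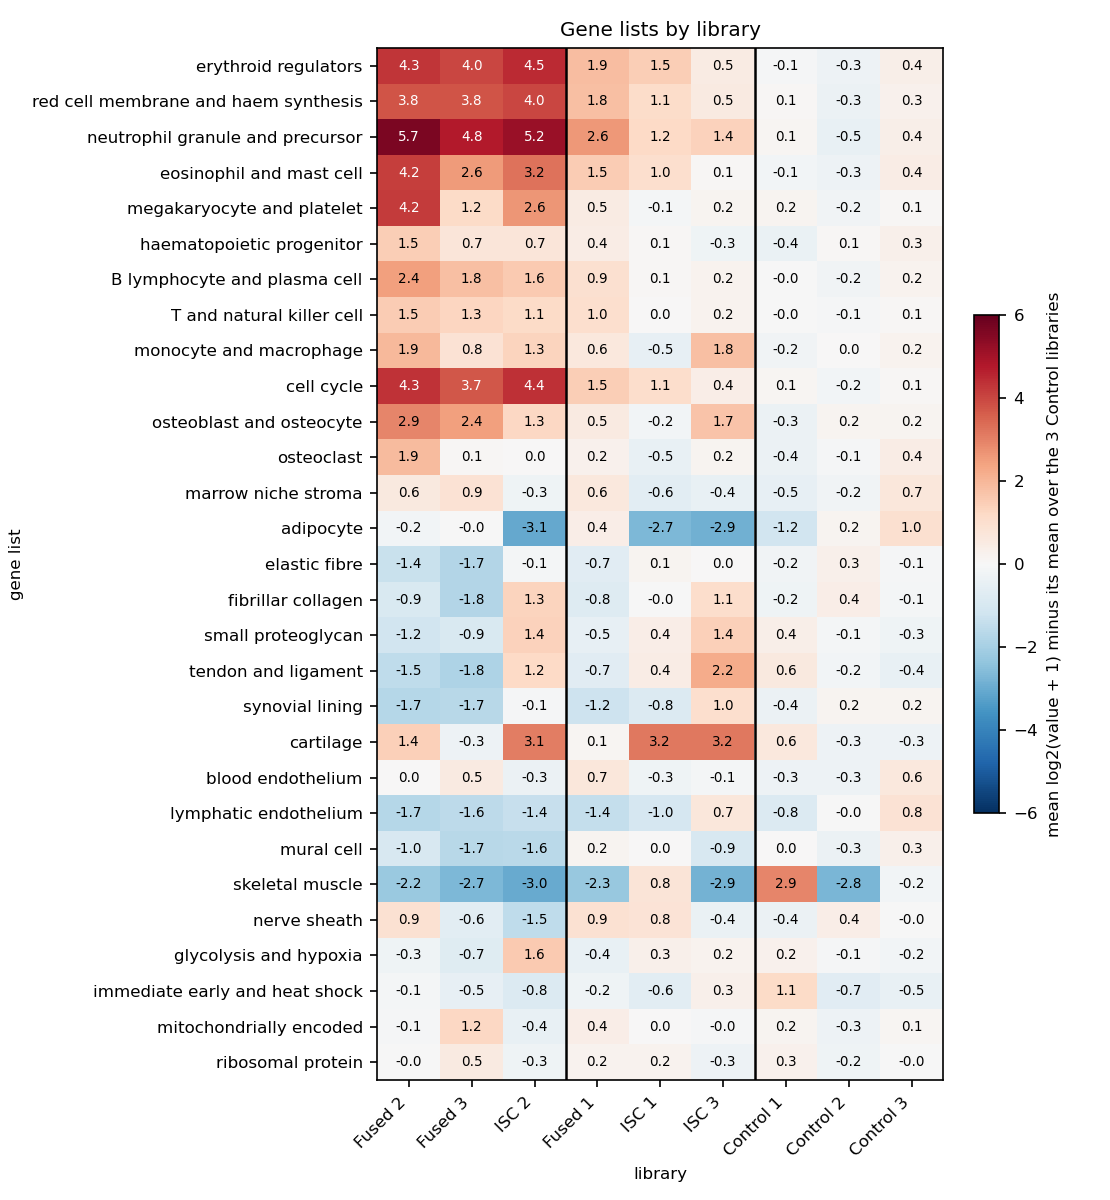
Mean log2(value + 1) of each of 29 gene lists (rows of the map) in each library (columns), minus the mean of that list over the 3 Control libraries; the first 3 columns are the high libraries, the next 3 the low ones. The cell cycle list, with a mean of 6.17 or more in the high libraries and 3.92 or less in the low ones before Control is subtracted, is raised like the red cell and neutrophil lists, while the adipocyte and matrix lists separate the Fused from the ISC libraries instead.

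Genes that set up the red cell programme were high together. Of 9 erythroid regulators that passed the filter, 8 stood above in the high libraries by a 2-fold gap, where 4.69% of all rows did. The other, LMO2, stood above by 1.24-fold. GATA1, the transcription factor that drives red cell and megakaryocyte genes (chromosome X, 33450987 to 33457774 on oryCun2), was at 97.6, 56.8 and 119 in Fused replicate 2, Fused replicate 3 and ISC replicate 2. It was at 11.6, 9.65 and 5.02 in Fused replicate 1, ISC replicate 1 and ISC replicate 3, and at most 1.89 in Control. KLF1, which switches on adult beta globin, was at 33.2, 30.6 and 47.7 in the high libraries and at 4.65, 3.22 and 0 in the low ones, in the same order. Every high library held more of both regulators than any low one. NFE2 (392, 352 and 445 against 47.6, 23.6 and 17.1) and TAL1 (283, 235 and 393 against 60.4, 23.6 and 26.1), further regulators of blood cell formation, showed the same separation.

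The enzymes and membrane proteins of red cells followed. Of 30 such genes that passed the filter, 23 stood above by a 2-fold gap and 29 without overlap, where 4.69% and 14.7% of all rows did. The exception was SELENBP1, a selenium-binding protein, at 22.7 in ISC replicate 2 and between 182 and 306 in the other operated libraries. ALAS2, the first enzyme of haem synthesis in red cell precursors (chromosome X, 36428281 to 36451177), was at 2801, 3367 and 2732 in the high libraries. It was at 670, 217 and 282 in the low ones and between 35.1 and 119 in Control. The 2 sets lay apart, and each low library was still above each Control library. CA2, a carbonic anhydrase of red cells, was at 911, 1036 and 1484 against 131, 79.3 and 31.1. SPTB, a spectrin of the membrane skeleton, was at 745, 692 and 1001 against 116, 90.1 and 23.1. TFRC, the transferrin receptor that brings iron to growing cells, was at 720, 534 and 943 against 110, 89.0 and 156. EPB41, a membrane skeleton gene used in many tissues, had a smaller gap of 1.93-fold. HBB2 itself was at 84310, 104546 and 88704 in the high libraries and at 22207, 7334 and 6988 in the low ones. For every 1000 HBB2 there were between 24.4 and 40.3 of ALAS2 in each of the 9 libraries, while HBB2 alone ranged from 1437 in Control replicate 2 to 104546 in Fused replicate 3. Of 13 haemoglobin genes in the list, 5 had a row and 2, HBB2 and HBQ1, passed the filter.

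Neutrophil genes separated the sets too, with the widest gap, 7.73-fold, in LTF. All 20 that passed the filter were above in every high library, 17 of them by a 2-fold gap, where 14.7% and 4.69% of all rows were. S100A9, a calcium-binding protein abundant in neutrophils (chromosome 13, 39032047 to 39034213), was at 4380, 2765 and 3240 in Fused replicate 2, Fused replicate 3 and ISC replicate 2, against 501, 222 and 107 in Fused replicate 1, ISC replicate 1 and ISC replicate 3. LCN2, a secondary granule protein that binds bacterial iron carriers, was at 6070, 2936 and 4013 against 502, 241 and 81.3. CAMP, which encodes a cathelicidin antimicrobial peptide, was at 4010, 1756 and 2505 against 330, 164 and 48.2, and LTF, lactoferrin, at 2725, 2115 and 3032 against 273, 107 and 55.2. In each of these 4 genes all the low libraries lay well below the lowest high one. MPO is made in early precursors of neutrophils and is a primary granule enzyme (chromosome 19, 29979855 to 29988597). It was at 301, 91.8 and 228 in the high libraries, at 12.8, 7.51 and 6.02 in the low ones and at most 4.71 in Control. Primary granule genes ELANE, PRTN3, AZU1 and CTSG had no row of that name and were not analysed here.

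**Figure D2:**
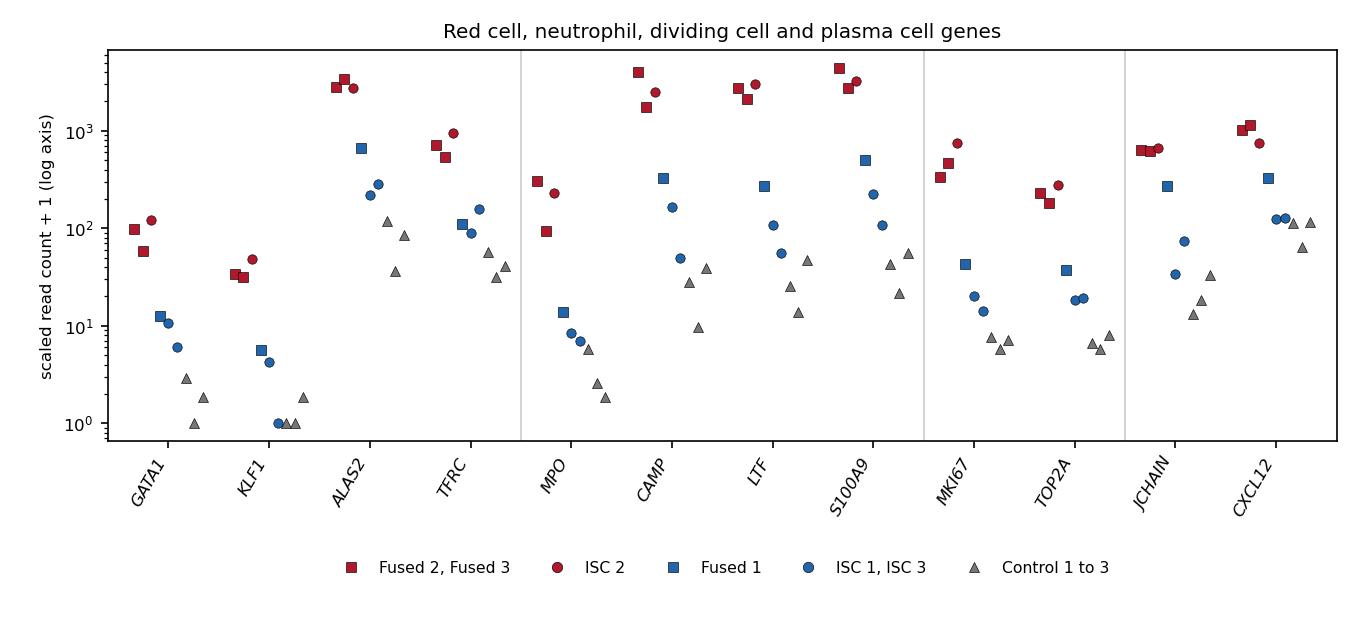
Scaled read count + 1 (log axis) of 12 genes in each of the 9 libraries, 1 point per library; red marks the high libraries, blue the low ones, grey Control, squares Fused and circles ISC. In all 12 genes the 3 red points lie above the 3 blue points, as for MPO (91.8 or more against 12.8 or less).

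Cell division genes were separated as cleanly as any blood gene. All 32 cell cycle genes were above in every high library, 31 by a 2-fold gap, where 14.7% and 4.69% of all rows were. TYMS, a thymidylate synthase, was above by 1.04-fold. MKI67, which coats the chromosomes of dividing cells (scaffold Un0028, 2308857 to 2336129), was at 337, 461 and 740 in Fused replicate 2, Fused replicate 3 and ISC replicate 2. It was at 41.8, 19.3 and 13.0 in the low libraries and between 4.79 and 6.60 in Control. TOP2A, the topoisomerase that untangles DNA in dividing cells, was at 231, 181 and 273 against 36.0, 17.2 and 18.1. PCNA, the sliding clamp of DNA replication, was at 295, 199 and 332 against 58.1, 55.8 and 79.3, and the helicase subunit MCM7 at 372, 279 and 345 against 111, 110 and 50.2. Both replication genes were also present in Control, PCNA at 55.9 to 75.4 and MCM7 at 64.7 to 102. Relative to ALAS2, MKI67 was highest in ISC replicate 2, at 271 for every 1000 ALAS2, against 120 in Fused replicate 2, 137 in Fused replicate 3 and between 46.3 and 89.1 in the low libraries. Control was at 55.6, 136 and 72.9. Control replicate 2 was above Fused replicate 2, so the ratio did not set every high library above every Control library. The Control ratios rest on few reads, since MKI67 was at 4.79 to 6.60 there.

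Of the 12 named genes with the widest gaps above, KIF11, AURKB and CCNB1 are in the cell cycle list and CA1 is in the red cell list. ECT2, an exchange factor for cytokinesis, had a gap of 9.73-fold (50.3, 42.6 and 64.5 against 3.48, 2.14 and 1.003). CDCA8 (9.49-fold) and AURKB (8.70-fold) belong to the complex that corrects chromosome attachment. The motor proteins KIF11, KIF2C and KIF23 had gaps of 9.27, 8.53 and 7.95, the mitotic cyclin CCNB1 8.21 and the S phase activator E2F2 7.92. TCF19 reached 9.24. GRAP2, an adaptor protein of blood cells, also reached 9.24 (46.3, 40.5 and 50.1 against 3.48, 1.07 and 0). CA1, a carbonic anhydrase of red cells, reached 8.82 and PLEK2, which takes part in red cell maturation, 8.40. A gap compares only the nearest libraries of the 2 sets and understates the difference of the others.

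Other blood lineages were uneven among the high libraries. Of 8 eosinophil and mast cell genes that passed the filter, 5 stood above by a 2-fold gap, where 4.69% of all rows did. PRG2, the major basic protein of eosinophil granules, was at 767 in Fused replicate 2, 144 in Fused replicate 3 and 334 in ISC replicate 2, against 29.0, 24.7 and 19.1 in the low libraries. EPX, eosinophil peroxidase, was at 291, 37.2 and 124 against 10.5, 11.8 and 3.01. Both genes kept the sets apart, while Fused replicate 2 held several times as much as Fused replicate 3. KIT, the stem cell factor receptor of mast cells and progenitors, did not separate the sets, at 122, 60.1 and 39.4 against 111, 124 and 12.04. CPA3, a mast cell protease, was listed at 0 in all 9 libraries.

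Megakaryocyte and platelet genes were highest of the 3 high libraries in Fused replicate 2 in 10 of 10 genes that passed the filter. Of all 15404 rows, 5375 were highest of the 3 there. ITGA2B, the alpha chain of the platelet fibrinogen receptor (chromosome 19, 44648352 to 44660521), was at 172, 14.2 and 39.4 in Fused replicate 2, Fused replicate 3 and ISC replicate 2, and at 9.29, 6.43 and 6.02 in the low libraries. PPBP, a platelet chemokine, was at 83.5, 3.28 and 27.5 against 1.16, 0 and 0. In Fused replicate 3 both genes were near the low libraries, although its red cell genes were as high as those of Fused replicate 2. ITGB3 overlapped between the sets, with 62.2 in ISC replicate 3 against 48.1 in Fused replicate 3. Only GP9 and RGS18, named after their values were seen, had a 2-fold gap above, where 4.69% of all rows did. PF4 had no row of that name.

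**Figure D3:**
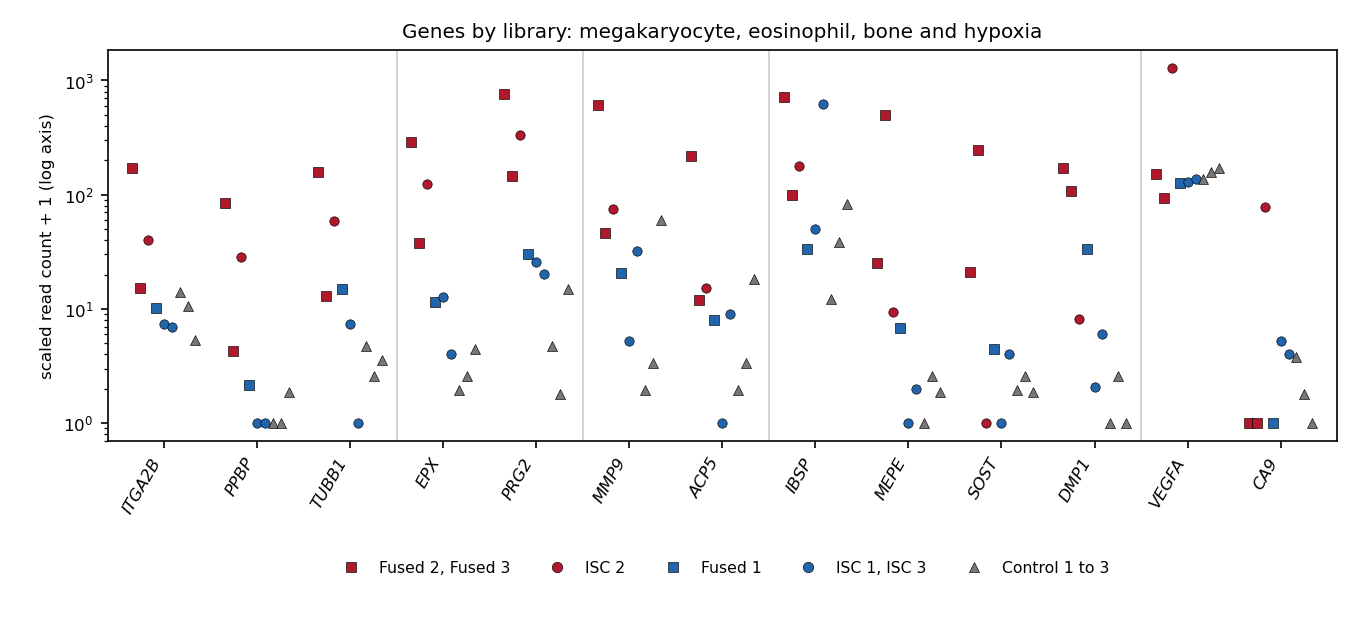
Scaled read count + 1 (log axis) of 13 genes in each of the 9 libraries, 1 point per library, with megakaryocyte, eosinophil, osteoclast, osteoblast and osteocyte, and hypoxia genes from left to right; colours and shapes are as in the plot of blood genes. The 3 red points are spread widely, as for ITGA2B (172, 14.2 and 39.4) and MEPE (24.1, 501 and 8.35).

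B lymphocyte and plasma cell genes mostly separated the sets by small gaps. Of the 15 that passed the filter, 11 were above in every high library, where 14.7% of all rows were. JCHAIN, which joins units of secreted antibody and marks plasma cells (chromosome 15, 79301956 to 79313386), was at 638, 625 and 668 in the high libraries and at 269, 33.2 and 73.2 in the low ones. A 2-fold gap above was reached by 3 of the 15: JCHAIN and, named after their values were seen, CD22 and POU2AF1. Of all rows, 4.69% reached it. CD79B, a chain of the B cell receptor, was at 45.3, 27.3 and 10.7 against 10.5, 3.22 and 3.01. T and natural killer cell genes were low. Their 15 rows summed to 101, 75.4 and 65.6 in the high libraries, 55.7, 23.6 and 28.1 in the low ones and between 18.4 and 25.5 in Control. NKG7, a granule gene of cytotoxic cells, gave 40.2 of that sum in Fused replicate 2. NKG7 and CD8B, the latter at 2.39 or less everywhere and named after its values were seen, had the 2-fold gaps of that list. CD3D, CD3E and CD3G, chains of the T cell receptor complex, did not exceed 6.03 in any library. LCK, a kinase of T cell receptor signalling, reached 10.9 in Fused replicate 3 and was at 4.65 or less in the low libraries, while CD8A was highest in ISC replicate 3, at 12.04.

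Macrophage genes mostly overlapped between the sets, as most rows did. Of 13 that passed the filter, 1 had a 2-fold gap above, near the 4.69% of all rows. It was the monocyte receptor CCR2, named after its values were seen. CD163, a haemoglobin scavenger receptor of macrophages, was at 47.3, 29.5 and 17.9 in the high libraries and at 20.9, 4.29 and 81.3 in the low ones. CSF1R, the growth factor receptor of macrophages, was likewise highest in ISC replicate 3, at 237, with 144 or less in the other operated libraries. LYZ, lysozyme, made by monocytes and neutrophils alike, was at 679, 212 and 280 against 132, 40.7 and 56.2, a gap of 1.60-fold. Of 12 progenitor genes, 3 had a 2-fold gap above: PTPRC and, named after their values were seen, IKZF1 and SPI1. PTPRC, the common leukocyte antigen, was at 238, 146 and 173 against 55.7, 11.8 and 44.1. CD34, found on progenitors and on vessels, was at 171, 144 and 357 against 374, 494 and 240, with no separation. HOXA9 was at 56.3, 40.5 and 41.8 against 91.7, 214 and 57.2. It was lower in every high library, but by a gap of only 1.01-fold.

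The data bear on the name "blood-rich" in one respect. The high libraries held red cell and neutrophil transcripts together with those of GATA1, KLF1, MPO and the cell cycle list. The reads alone do not tell blood from marrow, so the sets are called here by the genes that chose them. The dissection and any blood or bone in the samples are not described in the labels, and the part of either in these values was not tested.

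Stroma and bone genes gave a further, mixed picture. CXCL12, a chemokine that marrow stroma makes in abundance (scaffold Un0110, 205523 to 218507), was at 1021, 1150 and 747 in the high libraries. It was at 325, 124 and 125 in the low ones and between 63.1 and 116 in Control, and so kept the sets apart by 2.29-fold. Of the 10 stromal genes, CXCL12 and IL7, the latter at 10.9 or less and named after its values were seen, had a 2-fold gap. Over all rows, 4.69% stood above by such a gap. ADIPOQ and LPL, fat cell genes that marrow stroma also expresses, did not separate the sets. FOXC1, a transcription factor of mesenchymal cells, was at 231, 307 and 185 against 316, 347 and 266, with overlap.

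None of the 14 osteoblast and osteocyte genes or 7 osteoclast genes that passed the filter had a 2-fold gap. Of all rows, 5.01% had one in either direction, and lists so short need not hold any at that share. DMP1, a matrix protein of osteocytes, reached 171 in Fused replicate 2 and 106 in Fused replicate 3, 32.5 in Fused replicate 1 and at most 7.16 in the ISC libraries. IBSP, bone sialoprotein, was at 709, 98.4 and 177 in the high libraries, and ISC replicate 3 of the low set was at 627. MEPE and SOST, osteocyte genes named after their values were seen, peaked in Fused replicate 3 at 501 and 247, against 24.1 and 20.1 in Fused replicate 2 and 8.35 and 0 in ISC replicate 2. MMP9 and ACP5, a protease and a phosphatase of osteoclasts, peaked in Fused replicate 2 at 611 and 218, against 44.8 and 10.9 in Fused replicate 3 and 74.0 and 14.3 in ISC replicate 2. DMP1, by contrast, was highest in Fused replicate 2, like both osteoclast genes. MMP9 is also a neutrophil gene and counts in that list too. BGLAP, osteocalcin, was listed at 0 in all 9 libraries, and CTSK, a collagen protease of osteoclasts and fibroblasts, was at 1285, 570 and 1085 against 1191, 1671 and 2439.

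The high libraries also differed among themselves in other lists. All 13 mitochondrially encoded genes and all 26 ribosomal protein genes that passed the filter were highest of the 3 in Fused replicate 3. Of all 15404 rows, 4847 were highest of the 3 there. COX1, a subunit of cytochrome oxidase, was at 61924 there, against 27518 in Fused replicate 2 and 21628 in ISC replicate 2. All 16 glycolysis and hypoxia genes were highest of the 3 in ISC replicate 2, the only ISC library among them, where 5182 of all rows were. Every ISC library was above every Fused library in 9 of these 16, where 8.08% of all rows showed this order. VEGFA, the vessel growth factor induced by low oxygen and named after its values were seen, was at 1281 in ISC replicate 2 and between 91.8 and 150 in the other operated libraries. CA9, a carbonic anhydrase induced by low oxygen and named on the same ground, was at 77.6 in ISC replicate 2 and at most 4.29 elsewhere. Among the myelin genes, MBP was at 1235 in Fused replicate 2, 86.4 in Fused replicate 3 and 41.8 in ISC replicate 2, beside 676 and 760 in Fused replicate 1 and ISC replicate 1. None of these lists had a member with a 2-fold gap between the sets, where 5.01% of all rows had one.

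Few genes of any size were lower in the high libraries. Of the 48 rows with a 2-fold gap below, 7 reached a value of 50 in an operated library. Most of the 48 were at 0 in every high library, had few reads in the low ones and could pass the filter only through these. With a minimum value of 10, 8 rows stood below. In 20 of the 48, each high library was below all Control libraries, an order found in 1959 of the 15404 rows. The count of 48 became 171, 118 and 144 when Fused replicate 2, Fused replicate 3 or ISC replicate 2 was left out, and 90, 84 and 79 when Fused replicate 1, ISC replicate 1 or ISC replicate 3 was, since fewer libraries make a gap easier to reach. FHL5, a LIM protein of contractile cells (chromosome 12, 83827096 to 83883848), had a gap of 2.36-fold, at 26.2, 13.1 and 7.16 in the high libraries and 170, 79.3 and 63.2 in the low ones. GEM, a small GTPase, followed with 2.25-fold, PDLIM3, a Z-disc protein, with 2.23, FLNC, a filamin of muscle, with 2.22, the integrin ITGB4 with 2.18 and the matrix protease ADAMTS1 with 2.12. CYP26B1, which breaks down retinoic acid and was named through a RefSeq table, had 2.02. Below a 2-fold gap came TAGLN, GFRA1, ADCY2, HMCN1 and ACTG2, with 1.95 to 1.87. In the mural cell list, 0 of the 9 genes that passed the filter had a 2-fold gap below, where 0.312% of all rows did. ACTA2, RGS5 and TAGLN, 3 of the 9, were below in every high library by a smaller gap, where 7.55% of all rows were below. ACTA2, smooth muscle actin, was at 436, 139 and 155 in the high libraries and at 1333, 940 and 461 in the low ones. MYH11, smooth muscle myosin, overlapped, with 710 in Fused replicate 2 against 412 in ISC replicate 3. DNAJB1, a heat shock gene at 1.16 or less in the operated libraries, was the only listed gene with a 2-fold gap below and lies under the counting floor.

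**Figure D4:**
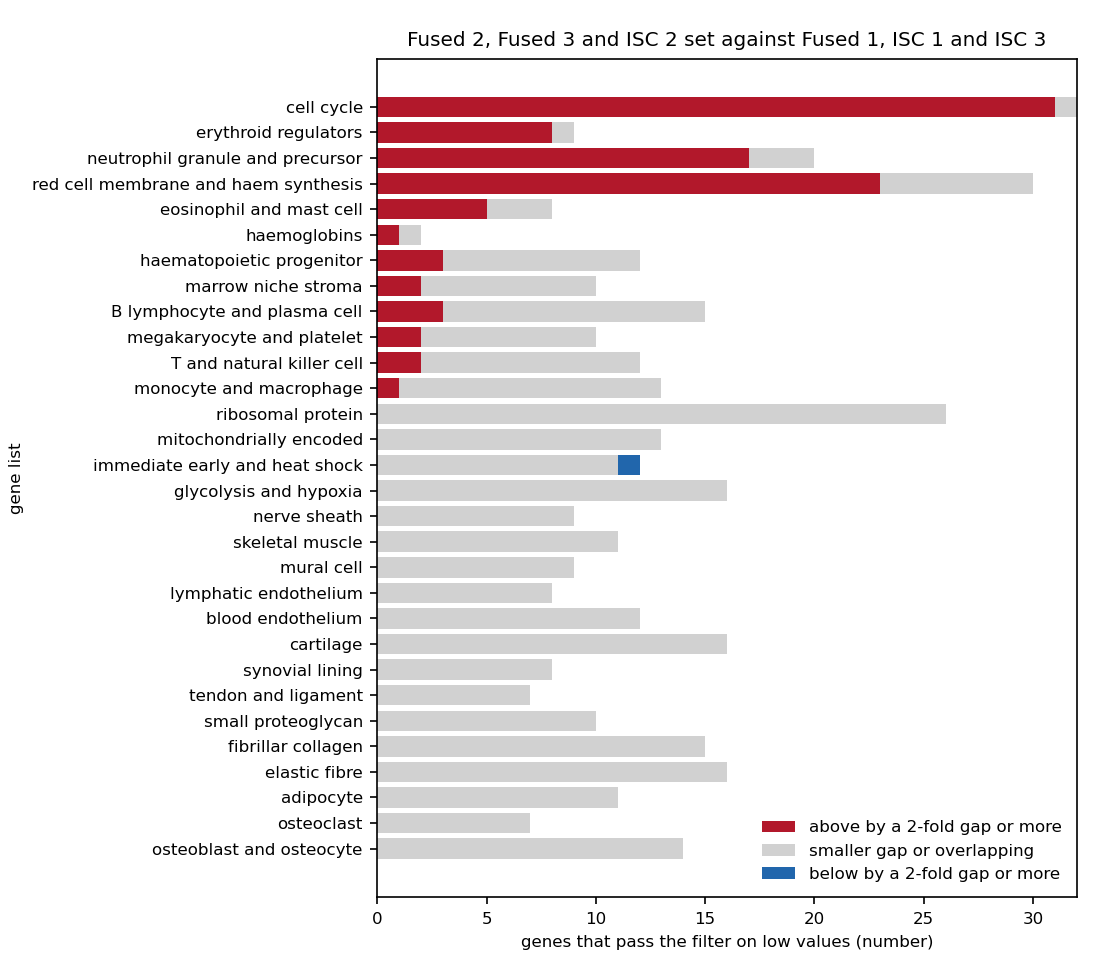
Number of genes of each list that pass the filter on low values (bar length), split into genes above by a 2-fold gap in the high libraries (red), genes below by a 2-fold gap (blue) and the rest (grey). Red fills 31 of 32 cell cycle genes, 17 of 20 neutrophil genes and 23 of 30 red cell membrane and haem genes. It fills 0 of the fibrillar collagen or adipocyte genes, and 4.69% of all rows stood above by such a gap.

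None of the elastic fibre, fibrillar collagen, small proteoglycan, tendon, synovial, cartilage, adipocyte or endothelial genes had a 2-fold gap between the sets. Of all rows, 5.01% had one in either direction. COL3A1, the fibrillar collagen of elastic tissues, was at 2092, 1655 and 54987 in Fused replicate 2, Fused replicate 3 and ISC replicate 2, and at 4886, 15876 and 22844 in Fused replicate 1, ISC replicate 1 and ISC replicate 3. Within the high set it therefore spanned from the lowest to the highest operated value. ELN, elastin, was at 265, 146 and 3754 in the high libraries against 411, 1757 and 1260 in the low ones. LOX, which crosslinks elastin and collagen, was at 377, 112 and 4391 against 897, 6207 and 2330. Every ISC library was above every Fused library in 10 of 15 fibrillar collagen genes, 11 of 16 cartilage genes and 7 of 10 small proteoglycan genes, where 8.08% of all rows showed this order. Every Fused library was above every ISC library in all 11 adipocyte genes, where 7.35% of all rows did. Both directions hold within each set, since each set holds libraries of both levels. Of the 16 elastic fibre genes, 4 were below in every high library, where 7.55% of all rows were. They were FBLN2, FBLN5, LTBP1 and LTBP4, named after their values were seen. Their gaps were 1.83, 1.23, 1.11 and 1.02, all under 2-fold. FBLN2, a fibulin, was at 101, 72.2 and 89.5 in the high libraries and at 231, 184 and 710 in the low ones.

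**Figure D5:**
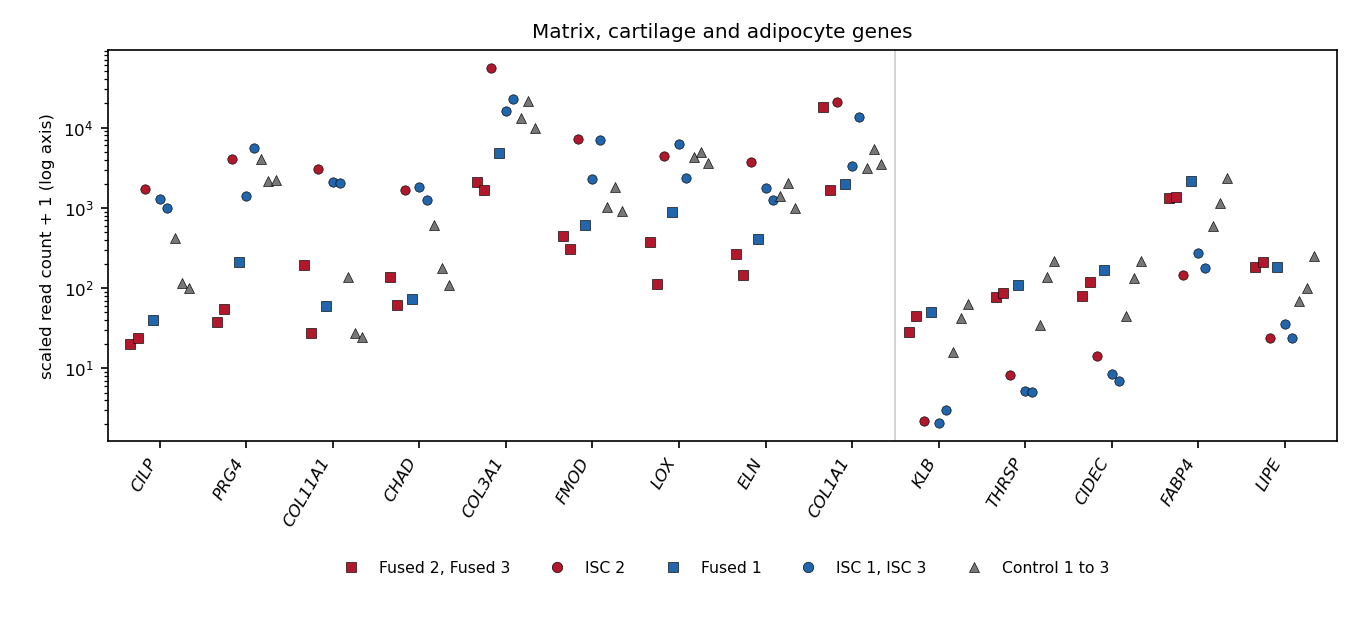
Scaled read count + 1 (log axis) of 9 matrix and cartilage genes and 5 adipocyte genes in each of the 9 libraries, 1 point per library; colours and shapes are as in the plot of blood genes. In CILP the circles (ISC, 992 or more) lie above the squares (Fused, 39.5 or less), and in KLB they lie below them.

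Fused was compared with ISC with limma on log2(value + 1), the test of the labels' own groups, to show which genes differ by level when both sets enter each group. Of 15404 rows, 43 were called at an adjusted p under 0.05 (0.279%), 12 higher in Fused (0.0779%) and 31 higher in ISC (0.201%). The median log2 change of all rows was 0.067. CILP, a matrix protein of cartilage and ligament, had 39.5, 19.1 and 23.0 in the Fused libraries, in replicate order, and 1283, 1694 and 992 in the ISC libraries. Its log2 change was -5.59 (SE 0.316, limma adjusted p = 0.00275). KLB, a co-receptor for fibroblast growth factors in fat, was at 48.8, 27.2 and 43.7 in Fused and 1.07, 1.19 and 2.01 in ISC, a log2 change of 4.05 (SE 0.442, limma adjusted p = 0.0285). Within Fused the high libraries had the 2 lowest values of both genes, and within ISC the high library had the highest CILP and the middle KLB value. PRG4 (lubricin), COL11A1, ANGPTL5 and CYTL1 were also higher in ISC, and THRSP, CIDEA, CIDEC and MC5R, fat cell genes, higher in Fused (limma adjusted p between 0.0124 and 0.0369). By list, 6 of 11 adipocyte genes were called higher in Fused, and 3 of 16 cartilage genes, CHAD, COL11A1 and SOX9, were called higher in ISC. Called or not, all 11 adipocyte genes had the higher mean log2 value in Fused, where 8571 of the 15404 rows did. All 16 cartilage genes had it in ISC, where 6833 of the 15404 rows did. Control was not part of this fit. THRSP was at 33.9, 137 and 216 in Control, 107, 77.4 and 85.3 in Fused and 4.29, 7.16 and 4.01 in ISC, so that ISC lay below both other groups.

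No gene of the red cell, neutrophil, eosinophil, megakaryocyte, macrophage or cell cycle lists was called between Fused and ISC. Limma, edgeR and DESeq2, fitted to the same libraries, each called 0 in these lists. Of their genes, 0 had an unadjusted limma p under 0.05, where 1586 of all 15404 rows did. The sort places high and low libraries in each level. Genes that follow the sort therefore vary widely within each level, so the test could hardly call them. The smallest limma adjusted p was 0.518 in the red cell list, 0.598 in the neutrophil list and 0.668 in the cell cycle list. The spread within each level was wide: MKI67 was at 280 ± 215 (SD, n = 3) in Fused and 257 ± 418 in ISC, a log2 change of 1.66 with SE 1.54 (limma adjusted p = 0.773). A p that misses the threshold does not show that the levels are alike, since the change could lie well on either side of 0. All 32 cell cycle genes, all 30 red cell genes and all 20 neutrophil genes had the higher mean log2 value in Fused. Their median log2 changes were 1.17, 1.23 and 1.86. Over all rows, 8571 of 15404 were higher in Fused. Fused is the level with 2 of the 3 high libraries, so level and sort cannot be told apart in these counts. Within the low set, Fused replicate 1 was above ISC replicate 1 in 26 red cell, 19 neutrophil and 24 cell cycle genes. It was above ISC replicate 3 in 29, 16 and 29 of them. The authors' deposited table calls 527 of 23407 rows between Fused and ISC (2.25%).

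The calls between levels depended on single libraries. Without Fused replicate 3 limma called 0 rows, with 990 at an unadjusted p under 0.05. It called 7 without Fused replicate 2, 9 without ISC replicate 1, 15 without ISC replicate 3, 17 without ISC replicate 2 and 29 without Fused replicate 1. With the 3 high libraries left out, 1 Fused and 2 ISC libraries remained and 4 rows were called, the lone Fused library being assumed to vary like the ISC libraries. CILP kept its call in 5 of 6 such fits, with adjusted p of 0.054 without Fused replicate 3, and at 0.0459 without the 3 high libraries. KLB lost its call without any 1 library (limma adjusted p between 0.05 and 0.164), and each of the other named genes lost it without at least Fused replicate 3, with log2 changes of the same sign throughout.

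Some blood genes were above Control in the low libraries too. Fused replicate 1 was above all 3 Control libraries in 8 of 9 erythroid regulators, 26 of 30 red cell genes, 17 of 20 neutrophil genes and 27 of 32 cell cycle genes, where 32.0% of all rows were. ISC replicate 1 was so in 8, 24, 13 and 25 of them (28.6% of all rows), and ISC replicate 3 in 5, 11, 17 and 16 (35.4%). In ISC replicate 3 the red cell count, 11 of 30, was close to the share of all rows. CAMP, for example, was at 330 in Fused replicate 1 and 48.2 in ISC replicate 3, against 8.78 to 38.3 in Control. Among the low libraries Fused replicate 1 was the highest in CAMP.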

How the data were processed

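Strand-keeping RNA-seq libraries of rabbit ligamentum flavum were prepared from total RNA, per the labels' protocols. TopHat aligned the reads to oryCun2 and Cufflinks was used afterwards, according to the submitters' design text. For the counting tool, its strand setting, the annotation and all versions the entry is: not given in the sources used here. Reads of overlapping or near-identical genes may therefore go to either gene. The authors deposited a normalized signal per gene, read counts scaled per library (by TMM, going by the names of the tables), for 23407 named rows. The 2 other deposited tables compared held the same values. The deposited p-values and q-values are the authors', and their calls correspond to q under 0.1. In each library 100% of values were whole multiples of the value of 1 read within a tolerance of 1e-06. In Fused replicate 2 and ISC replicate 3 that value lay near 1 (1.006 and 1.003), so that multiples are hard to tell from rounding there. Of 8020 locus identifiers, 700 received a symbol through a RefSeq table of another assembly (mOryCun1.1), from which no coordinate was taken. Coordinates come from the deposited tables.

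The sets of libraries, the 30 gene lists and the rule for named genes were chosen with earlier results of these data known. Named genes are up to 12 with the largest gap in each direction (highest operated value 50 or more), up to 4 per list with the highest operated mean, up to 5 called per direction, and a panel; others are said to be named after their values were seen. Fused against ISC was fitted with limma 3.58.1 (R 4.3.3) on log2(value + 1), allowing the variance to follow the mean, for rows at 1 or more in at least 3 of the 6 operated libraries, two-sided, with Benjamini-Hochberg adjustment over all rows and a threshold of 0.05. Fold changes and gaps on this scale understate the change of low genes. edgeR 4.0.16 and DESeq2 1.42.0 on recovered reads were alternatives; edgeR called 29 rows. The fit was tested on simulated data. Depth was between 1233155 and 1869209 reads per library.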

Additional observations from a re-analysis of the deposited data

How the results depend on the processing

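The same 3 high libraries came out of all 4 other rankings, which all rest on red cell genes. The rankings by SLC4A1 or HEMGN alone reuse the values that chose the sets. Against 771 rows with a 2-fold gap (723 above, 48 below), a pseudocount of 5 left 486 (481 above, 5 below), any gap gave 3420 (2257 and 1163) and a 4-fold gap 219 (219 and 0). Rows below numbered 8 with a minimum value of 10, 75 with quantile normalization and 30 with totals outside haemoglobin rows. Rows above made up 93.8%, against 66.0% with any gap and 82.1% without Fused replicate 2. Leaving out each library in turn gave 918 to 1133 rows, 784 to 1043 above and 79 to 171 below.

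Against 43 rows called between Fused and ISC, 79 were called with no filter, 74 with median centring, 82 with array weights, 214 in a fit of all 9 libraries, 318 with DESeq2, 29 with edgeR, 0 without the trend (1557 at an unadjusted p under 0.05), 0 to 29 without each library in turn and 4 without the 3 high libraries. Of the calls, 12 of 43 were higher in Fused, against 13 of 74 with median centring 14 of 36 with totals outside haemoglobin rows, 34 of 214 with all 9 libraries, 0 of 7 without Fused replicate 2, 4 of 29 without Fused replicate 1, 4 of 9 without ISC replicate 1 and 11 of 17 without ISC replicate 2, where most calls were higher in Fused. With the replicate block 88 were called, 40 of them shared; same-numbered libraries correlated by 0.314, 0.312 and -0.100 in their deviations, and Fused replicate 3 correlated best with ISC replicate 2 (0.245), so the numbers are not taken as a pairing. No named gene called in the main fit changed sign. Among named genes that were not called, changes of sign were not counted. For named genes outside the summaries, 433 of 481 log2 changes and 204 of 216 gaps kept their side of the threshold. Fits that left libraries out are not in these counts. Named genes not called in the main fit are in them. Among the named genes called there, calls kept without 1 library ranged from 0 of 6 fits for KLB to 5 of 6 for CILP. Depth limits values under 3 reads.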

Other observations

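Skeletal muscle genes, which should be absent from ligament, followed neither the sets nor the levels. MYH1, a fast muscle myosin, was at 277 in ISC replicate 1 and at most 3.58 in the other operated libraries, beside 771, 7.99 and 144 in Control replicates 1 to 3. ACTA1, skeletal actin, was at 153 in ISC replicate 1, at most 9.05 in the other operated libraries and at 915, 0 and 82.6 in Control. The 3 high libraries thus held little of either gene. FOS, an immediate early gene, was at 2104 in Control replicate 1 and between 173 and 484 in the operated libraries, with 484, 284 and 173 in the high set and 251, 295 and 201 in the low one. Of the 8 lymphatic vessel genes, 5 were highest among the operated libraries in ISC replicate 3, 2 in Fused replicate 1 and 1 in ISC replicate 2. STAB1 was at 689 in ISC replicate 3 and 226 or less in the other operated libraries. LYVE1 was at 142 in ISC replicate 3 and 62.7 or less in the other operated libraries. PDPN was at 422 in Fused replicate 1 and 208 in ISC replicate 3.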
